A study of Mus musculus with 3 samples.

Results

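The genes described are the 3 ligands of transforming growth factor beta (TGF-beta), their 3 receptors and the 4 SMAD proteins of that pathway most used as its readout: Tgfb1, Tgfb2, Tgfb3, Tgfbr1, Tgfbr2, Tgfbr3, Smad2, Smad3, Smad4 and Smad7. They were taken by symbol, and all 10 were found, with 1 entry each, among 23238 distinct symbols in 23282 entries. The samples are 3 bone marrow RNA libraries from male, wild type C57BL/6 mice, 6 weeks old, that received sterile water by gavage for 28 days and were harvested on day 29, with red blood cells lysed. Sterile water is the vehicle of a study of Asari Radix et Rhizoma, a dried wild ginger root used as a herbal medicine. Samples given the herb were not analysed here, so all comparisons are between genes or between the 3 vehicle libraries. The labels do not say whether each library came from a separate mouse or from a pool, so p-values measure the spread between these libraries, which may be technical.

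TGF-beta is secreted in a latent complex with its own propeptide and has to be released before it binds a receptor. The ligand assembles the type II receptor TGFBR2 with the type I receptor TGFBR1, whose kinase phosphorylates SMAD2 and SMAD3, and these enter the nucleus with SMAD4, while SMAD7 is induced by the pathway and blocks it. In marrow the pathway is known for holding haematopoietic stem cells in quiescence, and megakaryocytes, macrophages and stromal cells are known sources of the ligand or of its activators.

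Expression was read from the polyadenylated end of transcripts, a design meant to give about 1 fragment per transcript. Levels are therefore reads per 1000000 gene-assigned reads (CPM) with no length correction. Ratios between genes assume that this held alike for each gene, which was not tested. The libraries held 8104828 to 9168435 reads, of which 18.6% to 20.3% were assigned to Rn45s, the ribosomal RNA precursor, and these stay in the denominator of CPM. On library totals, the typical gene of replicate 1 was 0.15 log2 units higher than in the other libraries, and with trimmed-mean (TMM) scaling 0.01 higher, so directions between libraries were read on both scales. Neutrophil markers held 6.63% to 8.81% of reads and erythroid markers 6.65% to 9.997%, and each marker of both lists was detected in every library. RNA from whole marrow cannot tell fewer cells of a type apart from less RNA per cell.

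Because reads come from the transcript end, the letters there may bear on what could be counted. Of the members, 6 of 10 carry the main poly(A) signal AATAAA within the last 50 bases of the protein-coding transcript that reaches furthest in GENCODE M21, 3 of 10 carry only the variant ATTAAA, and 1 of 10 has neither. Over 19917 protein-coding genes of the files the shares were 60.7%, 13.6% and 25.7%. The search covered the transcript strand only, and a transcript with both was counted under AATAAA. Other variants of the signal were not searched for. Shown are the 3 ligands, which had few reads, and for comparison a receptor and a SMAD with many more, with the signal in capitals (GRCm38, 5′ to 3′). Tgfb1 is from chr7:25705048-25705077 (plus strand), Tgfb2 from chr1:186622792-186622821 (minus) and Tgfb3 from chr12:86056745-86056774 (minus). The stretch of Tgfb3 is its last 30 bases, with neither AATAAA nor ATTAAA. Tgfbr1 is from chr4:47414891-47414920 (plus) and Smad3 from chr9:63646794-63646823 (minus).
Tgfb1: cctggggggcccATTAAAggtgacagagga
Tgfb2: ggtgctctagtggtaAATAAAttatttcag
Tgfb3: ctaaaacagtaaagacctcactttaaggtg
Tgfbr1: ggaagcaatgcaAATAAAcaactttttccc
Smad3: aaacgcccttctAATAAActtttcaccgta
ATTAAA is also the signal of Tgfbr2 and Smad7, which had 384 and 537 reads. These are annotated ends, and which ends were used in these libraries was not determined. The part of the signal in the counts was not tested.

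Transcripts of the ligands were the scarcest of the members in these libraries. The 3 ligands together held 2.62 ± 0.479 CPM (SD, n = 3), the 3 receptors 33.0 ± 3.11 CPM and the 4 SMADs 113 ± 10.2 CPM. Receptors stood 12.6-fold above ligands and SMADs 3.42-fold above receptors in mean CPM. In each of the 3 libraries the class sums kept this order, and their ranges over libraries did not overlap.

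Tgfb1 (chromosome 7, 25687002 to 25705077), the ligand form known as the main one of blood cells, had 9, 14 and 22 reads in replicates 1, 2 and 3, or 0.982, 1.73 and 2.41 CPM. Their exact 95% Clopper-Pearson intervals, 0.449 to 1.86, 0.944 to 2.90 and 1.51 to 3.65 CPM, all overlapped one another. The libraries did not differ past counting noise (exact binomial test of each library against the others, Benjamini-Hochberg adjusted p = 0.178). In GENCODE M21 no gene overlaps Tgfb1 on either strand. The next gene downstream, Ccdc97, lies 6029 bases away on the opposite strand, its 3′ end being the nearer, with 410 to 552 reads. Upstream, B9d2 lies 444 bases away on the same strand, with 243, 225 and 208 reads in replicates 1, 2 and 3. These 45 reads are few for a gene known to be widely expressed in blood cells. The sources used here give neither annotation nor strand setting, and their part in the count was not tested. The ligand sum and each ratio to Tgfb1 given here rest on these reads, which are also no measure of the protein, known to be stored in platelets.

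Tgfb3 (chromosome 12, 86056745 to 86079041), a ligand form known from mesenchymal tissue, had 10, 9 and 2 reads, or 1.09, 1.11 and 0.219 CPM. Its transcript end lies within Ttll5, a gene on the opposite strand with 178, 131 and 105 reads. The sources used here do not say whether counting was by strand, so the reads of Tgfb3 and Ttll5 cannot be told apart with certainty. Tgfb2 (chromosome 1, 186622792 to 186705989), known from embryonic and neural tissue, had 0, 0 and 3 reads. A count of 0, with 3 reads taken as its limit, allows up to 0.327 CPM in replicate 1 and 0.370 CPM in replicate 2 (upper ends of the exact intervals 0.402 and 0.455), and the 3 reads of replicate 3 are 0.328 CPM (exact interval 0.0677 to 0.960), so no difference between libraries was detectable at this depth. Both genes had fewer than 30 reads in all and were not tested. Tgfb1 made up 47.4%, 60.9% and 81.5% of the ligand reads in replicates 1, 2 and 3, with exact intervals of 24.4% to 71.1%, 38.5% to 80.3% and 61.9% to 93.7%.

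The signalling receptors Tgfbr1 and Tgfbr2 were expressed at like mean levels, and the order of the pair changed with the library. Tgfbr1 (chromosome 4, 47353222 to 47414931), the type I receptor kinase, had 179, 75 and 155 reads, or 19.5, 9.25 and 17.0 CPM in replicates 1, 2 and 3. Replicate 2 was the low library, with an exact interval of 7.28 to 11.6 CPM that did not reach those of the others, which began at 16.8 and 14.4 CPM. The difference passed the test (exact binomial test, adjusted p = 4.83e-07 on library totals, 2.14e-06 by TMM). Over all genes tested, 56.5% were called on library totals and 10.2% were called with replicate 2 the low library, so a call of this kind was common. Without replicate 2 the remaining libraries did not differ in Tgfbr1 (adjusted p = 0.325, exact binomial test).

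Tgfbr2 (chromosome 9, 116084293 to 116175360), the type II receptor that binds the ligand first, had 112, 127 and 145 reads, or 12.2, 15.7 and 15.9 CPM, with replicate 1 the lowest. On library totals it did not pass the exact binomial test (adjusted p = 0.113), while TMM scaling gave 11.5, 15.97 and 16.7 CPM and it passed (adjusted p = 0.0114). Within a library, which no scaling changes, Tgfbr1 held 61.5%, 37.1% and 51.7% of the reads of the pair, with exact intervals of 55.7% to 67.1%, 30.5% to 44.2% and 45.9% to 57.4%. Tgfbr1 was thus the higher of the pair in replicate 1, the lower in replicate 2, and not separable from Tgfbr2 in replicate 3 at this depth.

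Tgfbr3 (chromosome 5, 107106570 to 107289629), which encodes betaglycan, a co-receptor with no kinase that presents TGF-beta2 to TGFBR2, had 16, 39 and 28 reads, or 1.75, 4.81 and 3.06 CPM. Replicate 2 was the high library and replicate 1 the low one, a 2.76-fold range. It passed the test (exact binomial test, adjusted p = 0.0125 on library totals, 0.00522 by TMM, where replicate 1 stood furthest apart and low), a call shared in library and direction by 7.05% of genes tested on library totals. Without replicate 1 or without replicate 2 it did not pass (adjusted p = 0.145 and 0.141, exact binomial test), and only 83 reads stood behind it. Replicate 2 therefore had the lowest Tgfbr1 and the highest Tgfbr3. The sum of the 3 receptors varied less, at 33.5, 29.7 and 35.9 CPM, but was also lowest in replicate 2. Of the receptor reads Tgfbr3 made up only 5.21%, 16.2% and 8.54% in replicates 1, 2 and 3.

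**Figure D1:**
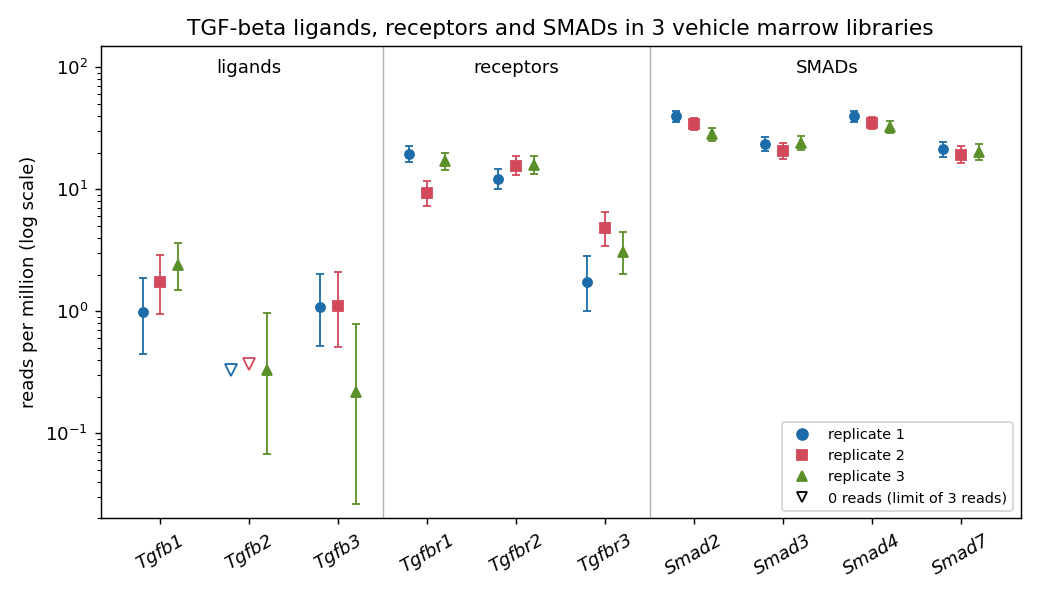
CPM (log scale) of the 10 genes in vehicle replicates 1, 2 and 3, with exact 95% intervals that cover counting error only; open triangles mark 0 reads, drawn at the level that 3 reads would give. The 3 ligands lie at or below 2.41 CPM and the 4 SMADs at or above 19.2 CPM in every library, and Tgfbr1 is lowest in replicate 2.

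Neutrophil markers were also lowest in replicate 2, where the 8 of them held 6.63% of reads against 8.56% in replicate 1 and 8.81% in replicate 3. All 8 of 8 were lowest there and none was at 0 in any library. The 6 erythroid markers were all lowest in replicate 1, the library with the lowest Tgfbr2 and Tgfbr3, at 6.65% of reads against 9.88% and 9.997%. Of the 8 T and NK cell markers, 6 were lowest in replicate 1, while their sum, 0.00770%, 0.00679% and 0.00914% of reads in replicates 1, 2 and 3, was lowest in replicate 2. The part of these cell types in the receptor values was not tested.

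The SMADs had the highest levels of the members. On library totals 1 of the 4 differed between libraries, against 56.5% of all genes tested. Smad4 (chromosome 18, 73639009 to 73703780), the partner that all receptor-regulated SMADs share, had 39.8, 35.2 and 32.4 CPM in replicates 1, 2 and 3 from 365, 285 and 296 reads. Replicate 1 was the highest, but the libraries did not pass the exact binomial test (adjusted p = 0.0698), and TMM scaling gave 37.4, 35.8 and 34.0 CPM (adjusted p = 1). With a chi-square test in place of the binomial test, or without replicate 2, Smad4 did pass (adjusted p = 0.0476 and 0.0268).

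Smad2 (chromosome 18, 76241580 to 76310963), which TGFBR1 phosphorylates, had 366, 279 and 260 reads, or 39.9, 34.4 and 28.5 CPM, with replicate 3 the lowest. It passed the test (exact binomial adjusted p = 0.00167), as 13.1% of all genes tested did with replicate 3 the low library. With TMM scaling the values were 37.5, 35.1 and 29.9 CPM and the adjusted p was 0.0426. Without replicate 1 or without replicate 3 Smad2 did not pass (adjusted p = 0.0728 and 0.131, exact binomial test). B cell markers, 4 of 6 lowest in replicate 3, held 0.0518%, 0.0548% and 0.0436% of reads, and stroma and endothelium markers, 6 of the 8 tested lowest there, 0.0319%, 0.0271% and 0.0219%. Stem and progenitor markers, 4 of the 8 tested lowest there, held 0.0371%, 0.0357% and 0.0288%, and megakaryocyte markers, 4 of 8 lowest there, 0.0552%, 0.0458% and 0.0451%. Monocyte and macrophage markers were instead highest in replicate 3 as a sum, at 0.111%, 0.108% and 0.120%. None of these markers was at 0 in any library, and the part of these cell types in the value of Smad2 was not tested.

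Smad3 (chromosome 9, 63646767 to 63757994), the other SMAD that TGFBR1 phosphorylates and one that binds DNA directly, had 23.6, 20.6 and 24.1 CPM from 216, 167 and 220 reads. Its 3 exact intervals overlapped one another, and it did not pass the test (exact binomial adjusted p = 0.421). Smad2 made up 62.9%, 62.6% and 54.2% of the reads of Smad2 and Smad3 together. The interval of replicate 3, 49.6% to 58.7%, lay just below that of replicate 1, 58.8% to 66.8%, and overlapped that of replicate 2, 57.9% to 67.1%.

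Smad7 (chromosome 18, 75367529 to 75395935), the inhibitory SMAD and itself a target of the pathway, had 21.4, 19.2 and 20.2 CPM from 196, 156 and 185 reads. Its coefficient of variation (CV) over the libraries was 5.25%, under the 7.49% that counting noise alone would give (exact binomial adjusted p = 1). Smad7 thus stood close to Smad3 in every library, at 0.907, 0.934 and 0.841 reads per read of Smad3. Among the SMAD reads, Smad4 held 31.9%, 32.1% and 30.8% and Smad7 17.1%, 17.6% and 19.3%.

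**Figure D2:**
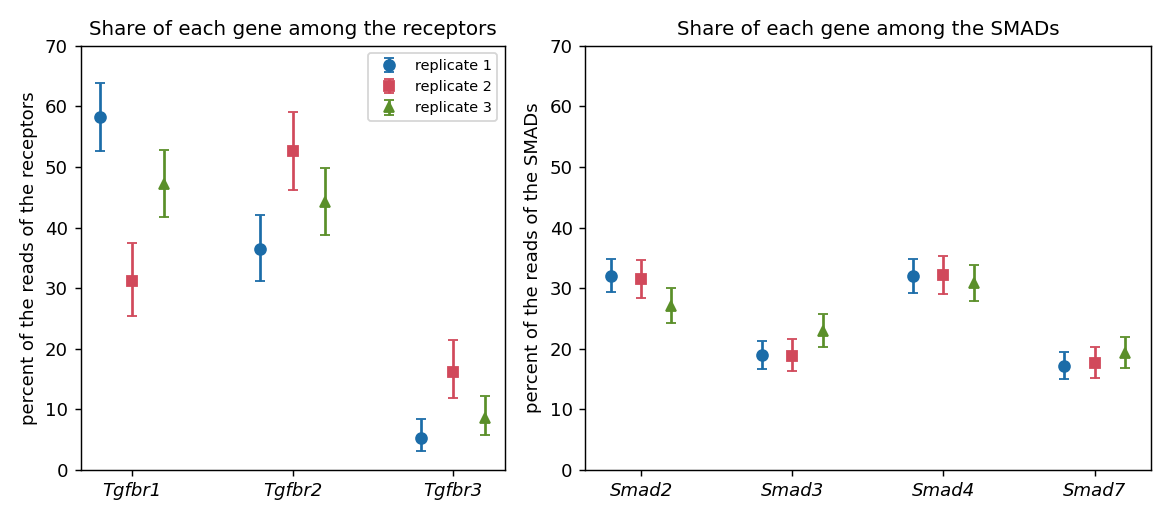
Percent of the reads of the 3 receptors (left) and of the 4 SMADs (right) held by each gene in replicates 1, 2 and 3, with exact 95% intervals. Tgfbr1 ranges from 31.1% in replicate 2 to 58.3% in replicate 1, while Smad2 among the SMADs ranges from 27.1% in replicate 3 to 32.0% in replicate 1.

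Ordered by mean CPM over the 3 libraries, the genes ran Smad4 (35.8 ± 3.75), Smad2 (34.3 ± 5.73), Smad3 (22.7 ± 1.87), Smad7 (20.3 ± 1.07), Tgfbr1 (15.2 ± 5.35), Tgfbr2 (14.6 ± 2.05), Tgfbr3 (3.21 ± 1.54), Tgfb1 (1.71 ± 0.713), Tgfb3 (0.807 ± 0.509) and Tgfb2 (0.109 ± 0.190) (SD, n = 3). The ranges of neighbours did not overlap at 2 steps, between Smad2 and Smad3, a 1.51-fold difference of means, and between Tgfbr2 and Tgfbr3, a 4.55-fold difference. At the other 7 steps they overlapped. Smad3 was above Smad7, Smad7 above Tgfbr1, and Tgfbr3 above Tgfb1 in 3 of 3 libraries all the same. With 3 libraries the smallest two-sided exact sign-flip permutation p is 0.25, so no step of this order could pass that test, and no other test over libraries was run.

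Of the 10 genes, 8 had at least 30 reads in all and were tested, and 3 of these 8 differed between libraries on library totals (Tgfbr1, Tgfbr3 and Smad2), against 56.5% of all 11833 genes tested. With TMM scaling 4 of 8 did (Tgfbr2 in addition), against 51.9%. The members were therefore not called more often than genes at large. The median CV of the 8 was 15.4%, beside 17.1% over all genes tested, whose median read number was 444. Tgfbr1 had a CV of 35.1% where counting noise gives 8.58%, and the 3450 genes of its read class, with a median of 559 reads, had a median CV of 15.7% and an upper quartile of 22.2%. Tgfb1 had a CV of 41.8% where counting noise gives 25.9%. The 2053 genes of its read class had a median CV of 39.5% and quartiles of 25.5% and 55.6%, so its spread was usual for its reads.

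**Figure D3:**
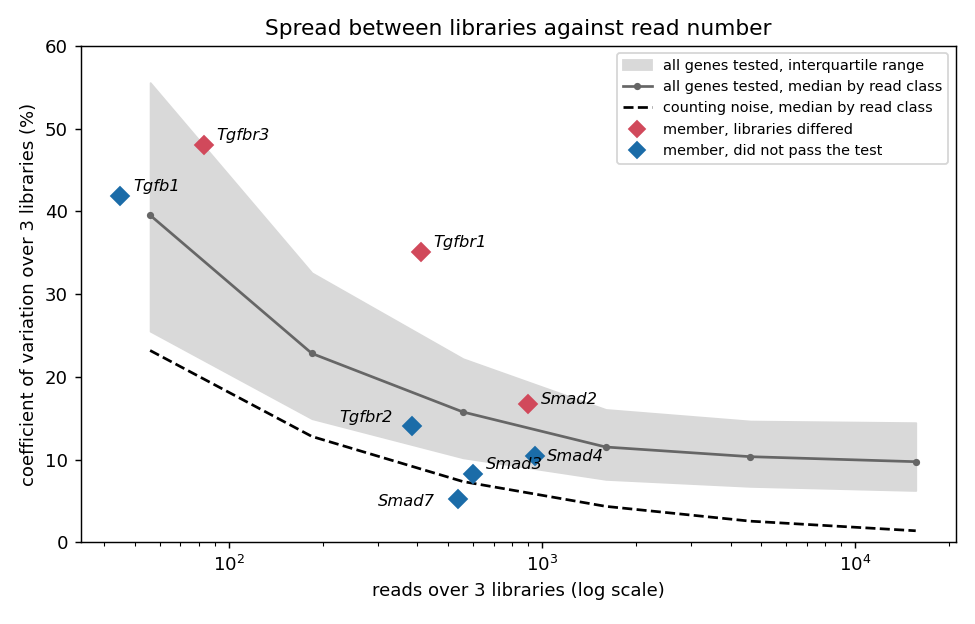
CV over the 3 libraries (percent) against the reads of each gene over the 3 libraries (log scale) for the 8 tested members, with the median and interquartile range of all genes tested by read class and the CV from counting noise. Tgfbr1, at 409 reads and a CV of 35.1%, lies above the interquartile range of genes with like read numbers, and Smad7, at 5.25%, lies below the counting noise line.

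Other genes of the pathway were set beside the members in 7 lists with 84 distinct genes, all in the files, of which 9 had no read in any library and 60 were tested. Of these 60, 32 differed between libraries (33 with TMM scaling), a share near that of all genes. Over all genes tested 56.5% were called on library totals and 51.9% with TMM scaling. The counts given below for single lists are to be read beside these shares. Those that differed did so in different libraries. On library totals, replicate 1 stood apart as the high library for 6 genes and the low one for 3, against 17.6% and 3.84% of all genes tested. Replicate 2 was high for 7 and low for 3, against 7.05% and 10.2%, and replicate 3 high for 4 and low for 9, against 4.69% and 13.1%. With TMM scaling these counts were 3 and 5 for replicate 1, 9 and 4 for replicate 2, and 7 and 5 for replicate 3. Over all genes tested the TMM shares were 8.51% and 8.38% for replicate 1, 9.19% and 8.95% for replicate 2, and 9.28% and 7.56% for replicate 3.

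Of the 13 genes that hold the ligand latent or release it, 9 had a mean level above the 1.71 CPM of Tgfb1, and the median of the list was 6.60 CPM. The 4 others, Ltbp2, Ltbp4, Itgb8 and Itgb6, had 0.931, 0.443, 0.123 and 0 CPM. The 3 genes with most reads stood far above the ligands. Nrros, whose protein tethers latent TGF-beta1 on macrophages and microglia, had 160, 120 and 132 CPM in replicates 1, 2 and 3, a mean 80.5-fold that of Tgfb1 (exact binomial adjusted p = 8.74e-11, the high library being replicate 1, and 4.89e-05 with TMM scaling, where replicate 2 was instead the library furthest apart and low). Thbs1, encoding thrombospondin-1, a platelet and matrix protein that can activate latent TGF-beta1, had 186, 233 and 163 CPM with replicate 2 high (exact binomial adjusted p = 8.83e-21). Furin, the protease that cuts the propeptide, had 67.4, 61.2 and 64.4 CPM and did not differ (adjusted p = 0.601, exact binomial test). Of the genes on this list 9 were tested and 4 differed, and the integrin subunit gene Itgb6 had no read in any library.

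The activin subunit gene Inhba was the highest of the other ligands, at 44.5, 65.4 and 44.0 CPM, with replicate 2 high (exact binomial adjusted p = 3.06e-10). Activin A acts through SMAD2 and SMAD3 as TGF-beta does, and Inhba averaged 30.1-fold the level of Tgfb1. Gdf15, a stress-induced ligand, followed at 6.65, 5.68 and 5.25 CPM (exact binomial adjusted p = 0.810), and Bmp4, a ligand of the SMAD1 and SMAD5 branch, at 1.53, 4.20 and 2.74 CPM with replicate 1 low (adjusted p = 0.0266, exact binomial test). Of the 14 genes of this list, 7 had at least 30 reads and 4 of those differed. The 4 include Bmp1, which encodes a protease and is on the list by name. Inha, Mstn, Nodal and Amh had no reads.

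Of the 12 other receptor and co-receptor genes, mostly for activin and bone morphogenetic protein (BMP), 3 stood above the mean level of Tgfbr2, and the median of the list was 1.49 CPM. The activin type I receptor gene Acvr1b had 1 read over the 3 libraries, and the BMP type I receptor gene Bmpr1a had a mean of 4.87 CPM. The activin type II receptor gene Acvr2a had 18.7, 29.4 and 14.99 CPM, with replicate 2 high and a 1.96-fold range (exact binomial adjusted p = 7.82e-09). Acvrl1, the type I receptor known as ALK1 in endothelium, had 15.6, 18.01 and 22.2 CPM with replicate 3 high (exact binomial adjusted p = 0.0154), and the BMP type II receptor gene Bmpr2 had 20.5, 18.9 and 15.2 CPM and did not pass (adjusted p = 0.0504, exact binomial test). Of the list 6 genes were tested and 3 differed. Inhba and Acvr2a were thus high in the library in which Tgfbr1 was low.

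Among the other SMADs, Smad5, of the BMP branch, had 32.8, 43.6 and 32.6 CPM, a level near those of Smad2 and Smad4, with replicate 2 high (exact binomial adjusted p = 0.000332). Smad1, of the same branch, had 9.93, 10.98 and 9.96 CPM (adjusted p = 1, exact binomial test). Inhibitory SMADs were uneven: Smad6, which acts mainly on the BMP branch, had 9, 0 and 1 reads where Smad7 had 196, 156 and 185. Smad9 had 11 reads, all in replicate 1.

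SMAD regulators held 16 genes, of which 15 were tested and 6 differed, or 8 with TMM scaling. Usp15, a deubiquitinase that acts on the type I receptor, had 89.1, 108 and 73.5 CPM with replicate 2 high (exact binomial adjusted p = 1.57e-09). Ppm1a, a phosphatase of SMAD2 and SMAD3, had 74.4, 65.5 and 66.3 CPM and Strap, a partner of SMAD7 at the receptor, 64.5, 60.6 and 60.9 CPM, and neither differed (exact binomial adjusted p = 0.0692 and 0.857). Smurf2, a ubiquitin ligase that SMAD7 brings to the receptor, had 35.1, 44.4 and 25.9 CPM, a 1.71-fold range (exact binomial adjusted p = 3.02e-07), with replicate 3 low on library totals and replicate 2 high with TMM scaling.

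Of 18 genes known as targets of the pathway, 14 were tested and 8 differed, or 7 with TMM scaling. Junb, an AP-1 subunit, had 502, 503 and 449 CPM, Id2, an inhibitor of E proteins, 191, 177 and 223 CPM, and Cdkn1b, encoding the cell cycle inhibitor p27, 114, 86.5 and 101 CPM. All 3 are regulated by many other signals, and all 3 differed between libraries, with replicate 3 low for Junb on library totals (replicate 2 high with TMM scaling), replicate 3 high for Id2 and replicate 2 low for Cdkn1b (exact binomial adjusted p = 9.42e-08, 2.53e-09 and 9.45e-06). The collagen genes had 36.8, 17.4 and 15.7 CPM for Col1a1 and 94.2, 72.8 and 52.6 CPM for Col1a2. Both were highest in replicate 1, with ranges of 2.35-fold and 1.79-fold. The library furthest apart was replicate 1, high, for Col1a1 and replicate 3, low, for Col1a2 (exact binomial adjusted p = 5.08e-21 and 2.99e-18). They also stand in the stroma list. Ctgf, a matrix-associated protein gene known as a target in fibroblasts, had 1, 5 and 1 reads, and Cdkn2b, encoding the cell cycle inhibitor p15, had none.

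Of the 10 genes of the SMAD-independent branch, all were tested and 6 differed. Rock1 and Rhoa, a kinase and the GTPase that drives it, had 808, 875 and 707 CPM and 254, 212 and 340 CPM, and Tab2, an adaptor of the kinase TAK1, 148, 165 and 160 CPM (exact binomial adjusted p = 9.11e-29, 3.02e-51 and 0.0307). Tab3, a related adaptor, had 15.9, 25.3 and 14.8 CPM with replicate 2 high, a 1.71-fold range (adjusted p = 2.01e-06, exact binomial test).

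**Figure D4:**
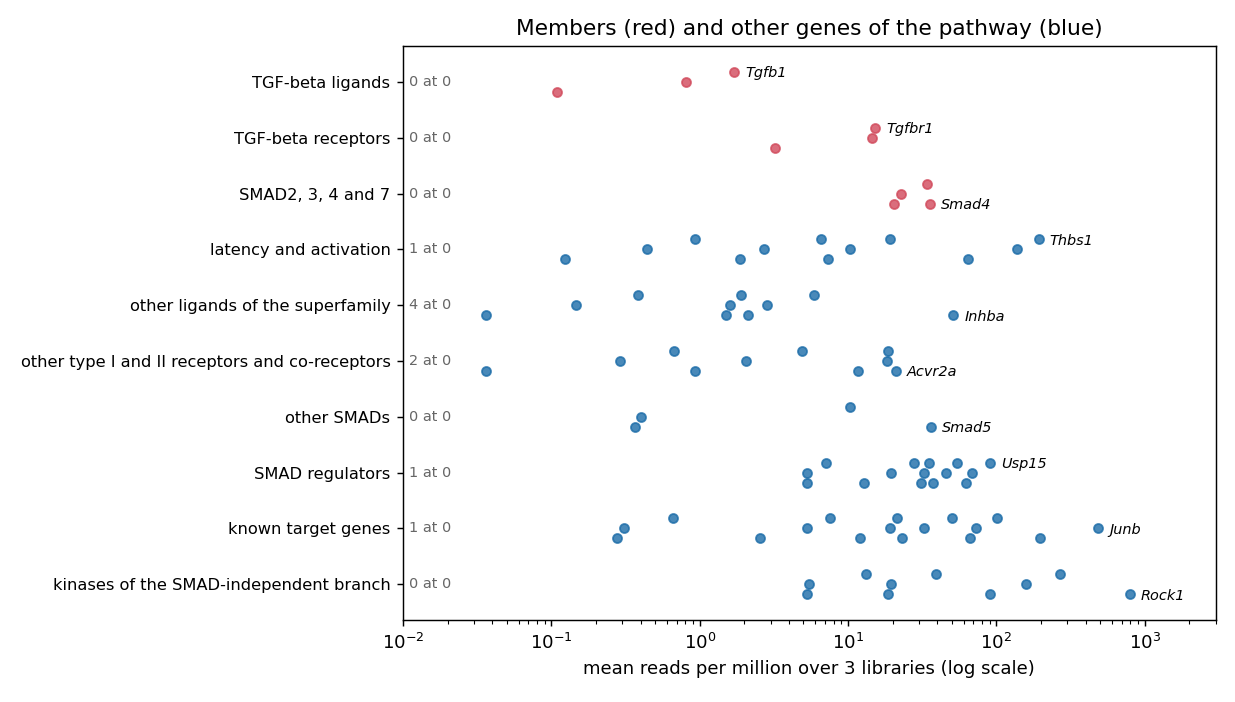
Mean CPM over the 3 libraries (log scale) of the 10 members in red and of the genes of 7 pathway lists in blue, 1 point per gene, with the highest gene of each list named and the number of genes without reads at the left. The TGF-beta ligands end at 1.71 CPM, while the other ligands reach 51.3 CPM with Inhba and the latency list 194 CPM with Thbs1.

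Among the 79 genes of the pathway and marker lists with at least 300 reads, those nearest in log2 CPM profile to Tgfb1 over the 3 libraries were Hba-a1, Alas2 and Hbb-bs, all erythroid. Their largest differences from its profile were 0.38, 0.41 and 0.42 log2 units. Alas2, the first enzyme of haem synthesis in red cells, had 341, 463 and 477 CPM. Profiles of 3 points from libraries that share a scale cannot single out a partner gene, and the 45 reads of Tgfb1 leave its own profile uncertain.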

How the data were processed

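Each library has 1 table of gene symbols and log2 values, which the authors deposited. From the values, these are log2(x + 1), x being scaled reads per 1000000. Per the submitters' processing notes, Bowtie2, bedtools and mm10 were used, and per the labels' protocols a Lexogen Quant-Seq kit. The annotation, strand setting and scaling rule were not given in the sources used here. After back-transformation 100% of the values were whole multiples of a library's 1-read step (relative tolerance 1e-06), so whole reads were recovered, as the design had assumed read counts. Genes with at least 30 reads over the 3 libraries (11833) were tested by comparing each library with the sum of the others (two-sided exact binomial test), the smallest p times 3, Benjamini-Hochberg adjusted at 0.05 over all of them. The test asks about counting noise only, and intervals and limits from 3 reads cover counting error only. It was tested on simulated counts that held only counting noise and set fold changes. Spread between libraries beyond counting noise was not simulated. Alternatives were TMM (30% and 5% trimmed), the authors' and median-of-ratios scaling, totals without the 20 most abundant genes, read minimums of 1, 10 and 100, a chi-square test, a pseudocount of 0.1 and leaving out each library. Python 3.11.15, NumPy 2.4.6, SciPy 1.17.1 and pandas 2.3.3 were used. Of the symbols, 22197 matched GENCODE M21 (GRCm38, the assembly of mm10), the source of positions and sequences. Named genes were the 10 members, the 3 genes with most reads of each pathway list, the 5 pathway genes of at least 300 reads with the largest range among those called, and the 3 nearest profiles to the most abundant ligand. Genes named for having no or few reads (Inha, Mstn, Nodal, Amh, Itgb6, Smad6, Ctgf and Cdkn2b), Smad9, Ltbp2, Ltbp4, Itgb8, Acvr1b, Bmpr1a, Bmp1, Foxp3, Cd3e, Cd3d, Cd3g, Cd4, Cd8a, Ncr1 and Rn45s are outside this rule and were picked with their values in view. The members and lists were chosen with earlier results of these data known.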

Additional observations from a re-analysis of the deposited data

How the results depend on the processing

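The number of members that differed, 3 on library totals, was 4 under TMM, the authors' and median-of-ratios scaling, without the 20 most abundant genes in the totals and with the chi-square test, and 2 with a minimum of 100 reads. Leaving out 1 library gave 1 to 2, the 1 being Tgfbr1 without replicate 1, and 22 pathway genes in each case in place of 32. Fewer libraries enter those tests, and over all alternatives 34.8% to 60.6% of all genes tested were called. Tgfbr2 was called under the 4 other scalings (adjusted p from 0.0114 to 0.0153). Without the 20 most abundant genes in the totals, which shrinks the denominator, mean levels were 3.10 CPM for Tgfb1, 1.43 for Tgfb3, 27.2 for Tgfbr1, 26.3 for Tgfbr2, 5.83 for Tgfbr3, 61.3 for Smad2, 40.9 for Smad3, 64.1 for Smad4 and 36.4 for Smad7. Under the other scalings each of the 10 levels moved by less than 1 SD. Leaving out 1 of 3 libraries cannot move a mean by 1 SD, so it does not bear on the levels or class shares. Tgfbr3 passed under the 4 other scalings with replicate 1 low, where on library totals replicate 2 was high. Each of the 3 calls was lost in at least 1 run with a library left out: Tgfbr1 without replicate 2 (exact binomial adjusted p = 0.325), Tgfbr3 without replicate 1 or 2 (0.145 and 0.141) and Smad2 without replicate 1 or 3 (0.0728 and 0.131). On library totals replicate 2 stood apart for Tgfbr1 and Tgfbr3, and replicate 3 for Smad2. Leaving out the library that stood apart removes the contrast that was called, so those losses follow largely from the test. Depth limits the ligands most, with 69 reads over the 3 libraries. No paired analysis was possible because there is 1 group.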

Other observations

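Foxp3, the transcription factor of regulatory T cells, a cell type known to depend on TGF-beta, had 99, 94 and 102 reads in replicates 1, 2 and 3, against 11, 17 and 16 reads for Cd3e, 15, 31 and 49 reads for Cd4 and 56, 66 and 117 reads for Cd3d, which those cells also express. Foxp3 was thus above Cd3e and Cd4 in each library. In replicate 3 it had fewer reads than Cd3d, but their exact intervals, 9.10 to 13.6 and 10.6 to 15.3 CPM, overlapped. Genes next to Foxp3 were not examined and the strand setting is not given, so their part in its count was not tested. Rock1 had 20956 reads over the 3 libraries, the most of the pathway genes, ahead of Junb with 12777 and Rhoa with 7163. Bmp1, a protease grouped with the BMP ligands by name, had 0, 11 and 29 reads, and 9 of the 10 reads of Smad6 were in replicate 1.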
